A study of Canis lupus familiaris with 6 samples.

Results

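Interferon-stimulated genes and their regulators were followed in MDCKII cells, an epithelial line from dog kidney (Madin-Darby canine kidney), grown as cysts or as a flat sheet. The set was given as 47 gene symbols, and a probe set was taken as a member when the platform annotation paired it with a single symbol of that list. This gave 83 of 42924 probe sets, standing for 40 of 15115 genes. The other 7 symbols (IFNAR2, IFIT1, IFIT3, OASL, BST2, and DDX58 with its newer name RIGI) had no such probe set and are not analysed here. Where a gene had several probe sets, the one whose mean across the 6 arrays was highest stood for it, a choice blind to the group difference, and the others are described beside it.

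Transcript levels were measured on 1-colour Affymetrix canine arrays. The 3D group (3 arrays) was MDCKII cells that form cysts on Matrigel, an extract of basement membrane proteins, spread thinly at 100 µl per 60 mm dish under MEM with 2% Matrigel. The 2D group (3 arrays) was MDCKII cells kept without Matrigel on plastic, where they form a polarized monolayer. Both groups carried no other treatment in the labels, and RNA was taken 36 h after plating. The study asked which genes are raised in cysts.

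Interferons are secreted signals of infection. Cells sense viral RNA, interferon regulatory factors switch on interferon genes, and secreted interferon binds receptors that activate transcription complexes such as ISGF3, which contains STAT2 and IRF9. The induced genes block viral replication, tag proteins with the ubiquitin-like ISG15, or raise the display of peptides on MHC class I, and epithelial cells keep a basal level of many of them without infection.

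The values are log2 values on the deposited scale, and differences are 3D minus 2D. The arrays of replicates 2 and 3 shared a scale, with medians of 7.06 to 7.08, whereas the replicate 1 arrays had medians of 5.26 in 3D and 5.42 in 2D. The 4 arrays of replicates 2 and 3 were therefore tested with limma (n = 2 arrays per group), and the replicate 1 pair gives 1 untested difference per gene on its own scale. The labels call the replicates biological without naming separate cultures, so p-values measure the spread between these arrays, whose small number limits the precision. Of the cell type markers, all 7 measured epithelial genes lay above the lower quartile of the arrays, CDH1, EPCAM, KRT8 and KRT18 among them. None of the 7 epithelial, 6 leukocyte, 4 endothelial and 6 fibroblast markers passed the limma threshold. The summed linear level of the 6 leukocyte markers was 9.51 to 9.57 in 3D and 9.30 to 9.33 in 2D on the log2 scale, that of the 4 endothelial markers 9.15 to 9.24 and 9.14 to 9.21, and that of the 6 fibroblast markers 8.60 to 8.65 and 8.66 to 8.67. Levels of the single markers of these other cell types ranged from 4.10 for COL1A2 to 8.47 for CDH5. PTPRC, the pan-leukocyte marker, lay at 6.51 to 6.58 in 3D and 6.40 to 6.43 in 2D, below the array medians. CD14, another leukocyte marker, lay above them, at 8.32 and 8.09 in 3D and 7.82 and 7.91 in 2D. All 6 leukocyte markers also lay above the lower quartile, so that level does not set the epithelial markers apart. Poly-A spike-in controls averaged 9.83 and 8.98 on the 3D arrays of replicates 2 and 3, against 8.81 and 8.86 on the 2D arrays. The 3' minus 5' difference of the GAPDH controls was 0.31 and 0.40 on these 3D arrays and 0.20 and 0.16 on the 2D arrays. That of the actin controls was 0.57 and 0.76 in 3D and 0.71 and 0.89 in 2D, with overlapping groups. On the replicate 1 arrays both were larger, at 1.47 in 3D and 1.67 in 2D for GAPDH and 2.90 and 2.17 for actin. The part of any of these in the results was not tested.

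Members with the lowest 3D minus 2D differences were antiviral effectors and genes of the ISG15 cycle, while a regulatory factor, a receptor chain and an immunoproteasome subunit were higher in 3D. At a limma adjusted p under 0.05 over all 42924 probe sets, 6 of 40 genes fell (ISG15, USP18, HERC6, CMPK2, EIF2AK2 and PARP9), 3 rose (IRF2, IFNGR2 and PSMB9) and 31 did not pass. The 6 lower genes are 15.0% of the members, against 3.09% of all genes, and the 3 higher genes are 7.5%, against 4.2% of all genes. The median difference was -0.39 over the 40 members and -0.01 over all genes. A fall of at least 2-fold was seen for 2 members, CMPK2 and ISG15, against 0.642% of all genes. In a bulk culture, fewer cells with a transcript and less of it per cell cannot be told apart.

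In 23 of the 40 genes both 3D values lay below both 2D values (57.5%, against 27.4% of all genes), and in 9 both lay above (22.5%, against 25.8%). By probe set, 11 of 83 fell (13.3%, against 2.96% of all probe sets) and 4 rose (4.8%, against 3.65%), and 8 genes had at least 1 lower probe set (20.0%, against 4.95% of all genes) and 3 at least 1 higher (7.5%, against 5.09%). Without 3D replicate 2, without 3D replicate 3, and likewise without either 2D array, the calls were lost. Such a fit leaves 1 array in a group, so only the direction is given here. All 9 called genes kept their direction, as they had to, since their 3D and 2D values do not overlap. With all 6 arrays in 1 limma fit, the replicate 1 arrays included, 0 members passed, either as deposited or after quantile normalization. At an unadjusted p under 0.05 there were 0 members and 105 of 42924 probe sets as deposited. After quantile normalization there were 10 members and 1775 probe sets at that level.

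**Figure D1:**
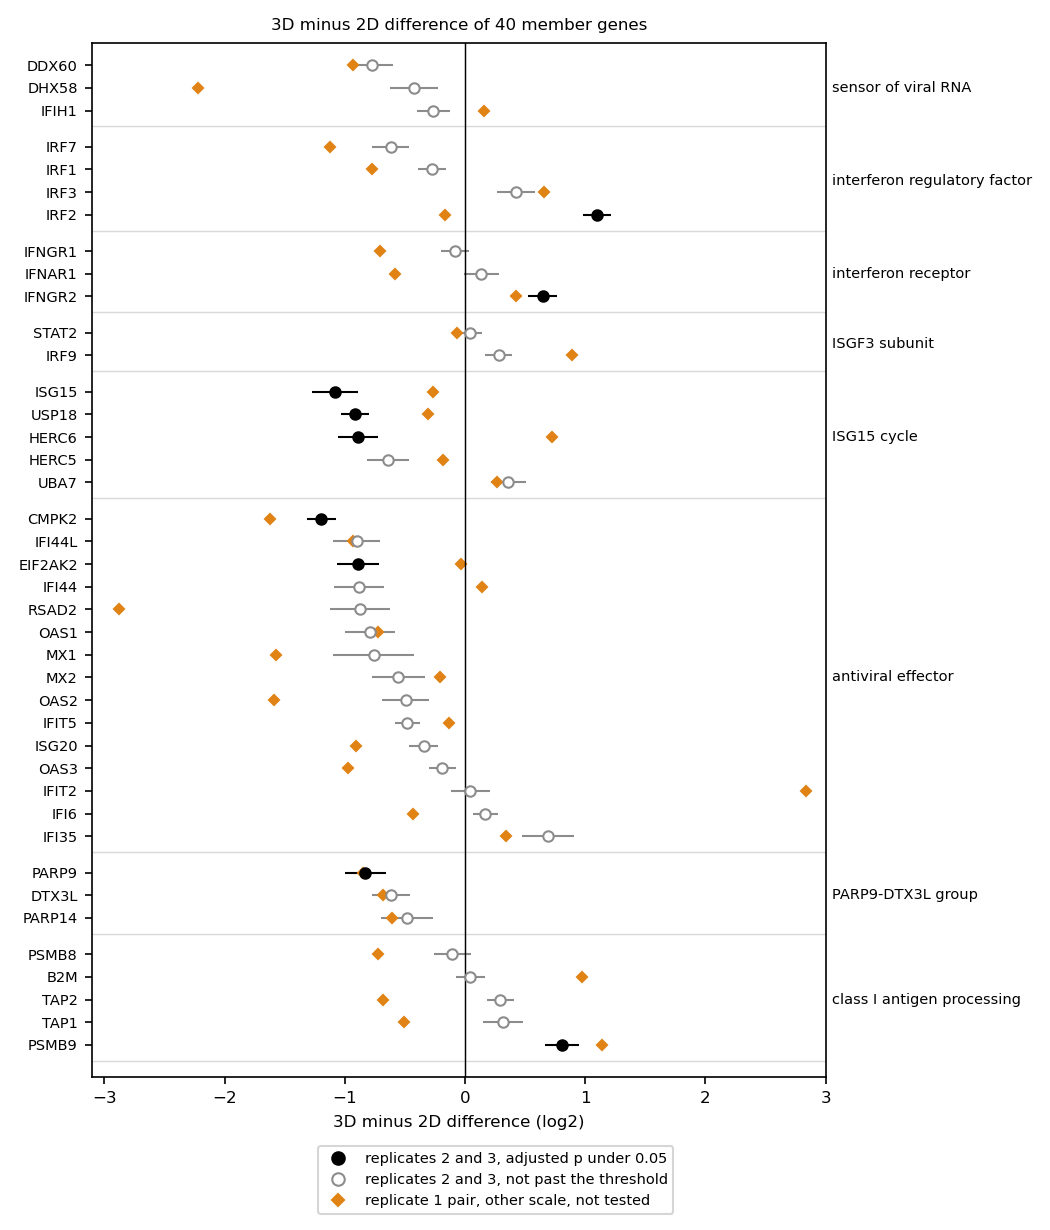
The 3D minus 2D difference (log2, horizontal axis) of each of the 40 member genes, grouped by role, with circles for replicates 2 and 3 (bars: standard error, n = 2 arrays per group, filled where the limma adjusted p is under 0.05) and diamonds for the untested replicate 1 pair. The ISG15 cycle holds 3 of the 6 filled circles below 0, and the filled circles above 0 are IRF2, IFNGR2 and PSMB9.

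Among sensors of viral RNA, none of the 3 measured genes passed on its representative probe set. All 3 had both 3D values below both 2D values, as had 27.4% of all genes. DDX60, a helicase that assists the RIG-I-like receptors, had 5.84 and 5.93 in the 3D arrays of replicates 2 and 3, against 6.91 and 6.41 in the 2D arrays (difference -0.78, SE 0.175, limma adjusted p = 0.0574). Its second probe set fell, with 5.94 and 5.72 in 3D and 7.79 and 6.82 in 2D (difference -1.48, SE 0.301, limma adjusted p = 0.045). The 3D values of both probe sets lie close to the arrays' lower quartiles of 5.64 to 5.67, so the size of the difference is uncertain. DHX58, which encodes the regulatory receptor LGP2, differed by -0.43 (limma adjusted p = 0.269), and IFIH1, which encodes the double-stranded RNA sensor MDA5, by -0.27 (limma adjusted p = 0.318). In replicate 1 DDX60 differed by -0.93 and -0.05 on its probe sets, DHX58 by -2.22 and IFIH1 by 0.16.

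Of the 4 interferon regulatory factors 1 rose (against 4.2% of all genes) and 3 did not pass, too few genes to read the count as a result. IRF2, best known as a repressor that competes with IRF1 for the same sites, had 9.64 and 9.41 in 3D, against 8.44 and 8.41 in 2D, so that the groups were apart by more than the gap within either. It rose 2.14-fold (difference 1.10, SE 0.117, limma adjusted p = 0.0112), and a second probe set rose as well (0.71, SE 0.12, limma adjusted p = 0.0292), with 9.64 and 9.42 in 3D and 8.76 and 8.88 in 2D. The remaining IRF2 probe set lay at 5.51 and 5.46 in 3D and 5.57 and 5.78 in 2D, around the arrays' lower quartiles, and did not pass (-0.19, limma adjusted p = 0.392). The rise was not shared by replicate 1, where the 3 probe sets differed by -0.17, -0.50 and -1.28.

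IRF1, the activator among the pair, did not pass on any of its 3 probe sets, whose differences were all below 0, with 8.84 and 8.59 in 3D and 9.00 and 8.98 in 2D on the representative one (difference -0.28, SE 0.12, limma adjusted p = 0.24). IRF7, the interferon-inducible factor that amplifies interferon alpha production, had 8.36 and 8.13 in 3D and 9.04 and 8.69 in 2D (difference -0.62, SE 0.154, limma adjusted p = 0.0723). IRF3, the constitutive factor that starts interferon beta transcription, had 11.79 and 11.38 in 3D and 11.10 and 11.22 in 2D (difference 0.43, SE 0.156, limma adjusted p = 0.172). For IRF1, IRF7 and IRF3 the 2 groups did not overlap, and replicate 1 had the same signs, with differences of -0.77, -1.12 and 0.66. Of all genes, 27.4% were lower in 3D without overlap and 25.8% higher.

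Of the receptor chains, IFNGR2, the signalling chain of the interferon gamma receptor, rose 1.56-fold. It had 12.56 and 12.52 in 3D, against 12.01 and 11.78 in 2D (difference 0.65, SE 0.117, limma adjusted p = 0.0343). A pair of its other probe sets gave 0.49 (limma adjusted p = 0.0662) and 0.42 (limma adjusted p = 0.227) and the dimmest one -0.06, and as the mean of all 4 probe sets the gene did not pass (0.37, limma adjusted p = 0.125). IFNGR1, the ligand-binding chain of that receptor, had 8.82 and 8.71 in 3D and 8.75 and 8.95 in 2D, with overlapping groups (difference -0.09, SE 0.117, limma adjusted p = 0.74). IFNAR1, a chain of the type I interferon receptor, had 8.74 and 9.09 in 3D and 8.70 and 8.86 in 2D (difference 0.14, SE 0.147, limma adjusted p = 0.661), and its second probe set gave 0.42 (limma adjusted p = 0.0682). In replicate 1 the representative probe sets differed by 0.42 for IFNGR2, -0.71 for IFNGR1 and -0.58 for IFNAR1.

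Neither measured subunit of ISGF3 passed. STAT2 had 8.65 and 8.58 in 3D and 8.60 and 8.54 in 2D (difference 0.05, SE 0.0999, limma adjusted p = 0.851), and its other 4 probe sets ranged from -0.10 to 0.50 without passing. IRF9, the DNA-binding subunit, had 9.08 and 8.98 in 3D and 8.84 and 8.66 in 2D (difference 0.28, SE 0.113, limma adjusted p = 0.207), against -0.07 and -0.10 on its other probe sets. All 8 probe sets of this pair of genes thus differed by at most 0.50 in either direction in replicates 2 and 3. In replicate 1 the STAT2 probe sets differed by -0.67 to 0.44 and those of IRF9 by 0.89, 0.31 and -1.27.

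The ISG15 cycle attaches the ubiquitin-like protein ISG15 to targets through the activating enzyme UBA7, the conjugating enzyme UBE2L6 and, in human cells, the ligase HERC5, and USP18 removes it and also restrains the type I interferon receptor. ISG15 had 11.19 and 11.00 in 3D, against 12.45 and 11.91 in 2D, and fell 2.12-fold (difference -1.09, SE 0.191, limma adjusted p = 0.0317). Its second probe set also fell, with 9.73 and 9.58 in 3D and 11.14 and 10.49 in 2D (difference -1.16, SE 0.214, limma adjusted p = 0.0354). The groups stood apart on both, though the 2D arrays differed from each other by 0.54 and 0.65.

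USP18 had 9.25 and 9.22 in 3D, against 10.26 and 10.04 in 2D, and fell 1.89-fold (difference -0.92, SE 0.116, limma adjusted p = 0.015). HERC6, a close relative of HERC5 that acts as the ISG15 ligase in mouse, had 10.80 on both 3D arrays, against 11.92 and 11.46 in 2D, and fell 1.85-fold (difference -0.89, SE 0.164, limma adjusted p = 0.0349). HERC5 had 4.74 and 4.83 in 3D and 5.67 and 5.18 in 2D (difference -0.64, SE 0.173, limma adjusted p = 0.0868), values around or below the arrays' lower quartiles. HERC5 and HERC6 lie next to each other in the canine gene table.

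Neither enzyme upstream in the cycle passed. UBA7 had 10.42 and 10.11 in 3D and 10.02 and 9.79 in 2D (difference 0.36, SE 0.147, limma adjusted p = 0.211), and its other probe sets gave 0.14 and 0.26. UBE2L6, from the wider list of pathway genes, had 12.07 and 11.90 in 3D and 11.77 and 11.73 in 2D (difference 0.24, SE 0.109, limma adjusted p = 0.264). The difference between ISG15 and these enzymes was not tested. In replicate 1 ISG15 differed by -0.27, USP18 by -0.31 and HERC5 by -0.18, against 0.27 for UBA7 and 0.72 for HERC6, which went the other way there.

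Of 15 antiviral effectors, 2 fell (13.3%, against 3.09% of all genes), 0 rose (against 4.2% of all genes) and 13 did not pass, with a median difference of -0.56. At an unadjusted limma p under 0.05, 10 were lower and 1 was higher. Of all 42924 probe sets, 10072 reached that level in either direction. CMPK2, a mitochondrial nucleotide kinase, had 8.56 and 8.51 in 3D, against 9.86 and 9.60 in 2D, and fell 2.29-fold (difference -1.20, SE 0.123, limma adjusted p = 0.0104). Another pair of its 4 probe sets fell, by 0.88 and 0.95 on the log2 scale, and the fourth gave -0.61 (limma adjusted p = 0.117). The 4 probe sets differed by -0.91 to -1.62 in replicate 1, so that CMPK2 was lower in 3D on every array pair and probe set measured.

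RSAD2, which encodes the antiviral enzyme viperin and is the next gene to CMPK2 in the canine gene table, had 5.48 and 6.27 in 3D and 6.81 and 6.69 in 2D. It did not pass (difference -0.88, SE 0.249, limma adjusted p = 0.0983), and the 3D arrays were 0.79 apart. The lower of its 3D values lay under the lower quartile of 5.64 on that array. Its replicate 1 difference of -2.88 was the lowest of the 40 members.

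EIF2AK2, the double-stranded RNA-activated kinase PKR, had 6.93 and 7.19 in 3D, against 8.17 and 7.73 in 2D, and fell 1.85-fold (difference -0.89, SE 0.176, limma adjusted p = 0.042). In replicate 1 it was level between the groups, at 5.57 in 3D and 5.60 in 2D. IFI44L, an interferon-induced gene next to IFI44, had 9.82 and 9.77 in 3D and 10.99 and 10.40 in 2D on its representative probe set (difference -0.90, SE 0.195, limma adjusted p = 0.052). A second probe set of IFI44L fell, with 9.30 and 9.25 in 3D and 10.73 and 10.04 in 2D (difference -1.11, SE 0.221, limma adjusted p = 0.0428), and the mean of its 3 probe sets passed (-1.01, limma adjusted p = 0.042). IFI44 had 9.88 and 10.41 in 3D and 11.20 and 10.85 in 2D (difference -0.88, SE 0.206, limma adjusted p = 0.0635). In replicate 1 IFI44L differed by -0.93 and IFI44 by 0.14.

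**Figure D2:**
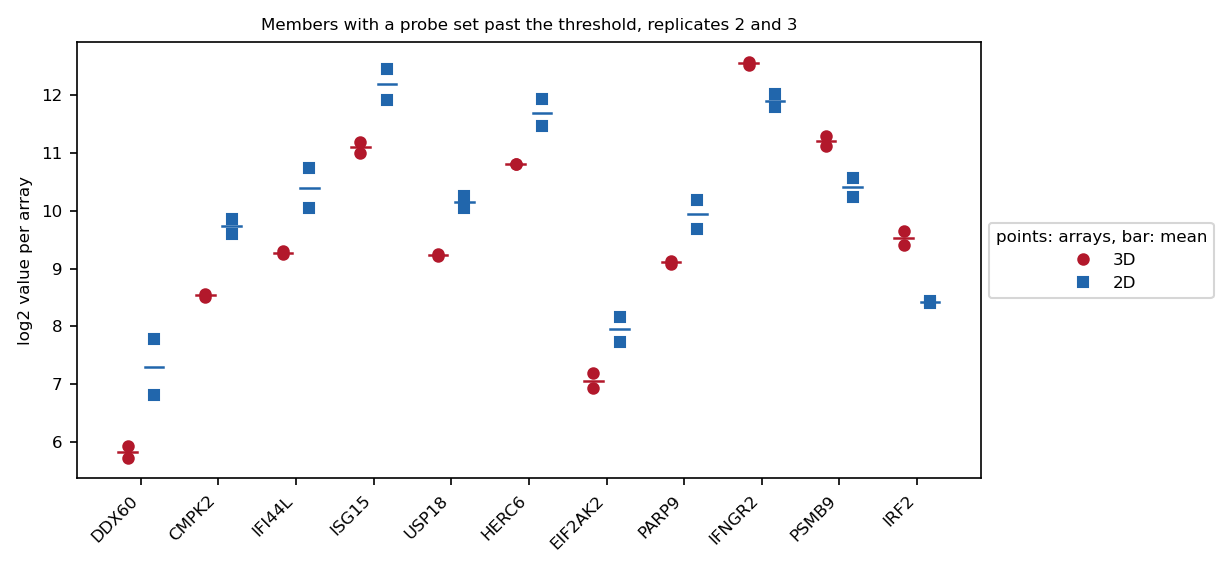
Log2 value on each array of replicates 2 and 3 (vertical axis) for the 11 member genes with at least 1 probe set past the threshold, 3D as circles and 2D as squares, with a bar at the mean of each pair of arrays. For DDX60 and IFI44L the called probe set is shown in place of the representative one. The 3D values lie below both 2D values for the 8 genes on the left and above them for IFNGR2, PSMB9 and IRF2.

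The classical interferon-induced GTPases and oligoadenylate synthetases did not pass, with differences below 0 on the representative probe sets of all 5 measured genes. MX1, a GTPase that traps viral nucleocapsids, had 9.98 and 9.42 in 3D and 10.95 and 9.97 in 2D, so that the groups overlapped (difference -0.76, SE 0.338, limma adjusted p = 0.248). MX2 beside it had 5.61 and 5.71 in 3D and 6.56 and 5.87 in 2D (difference -0.56, SE 0.222, limma adjusted p = 0.204). OAS1, which makes the oligoadenylate that activates RNase L, had 10.63 and 10.23 in 3D and 11.47 and 10.97 in 2D (difference -0.79, SE 0.208, limma adjusted p = 0.082). Of the other 4 OAS1 probe sets 3 gave -0.61 to -0.77 and the dimmest 0.05. OAS2 and OAS3, which adjoin OAS1, gave -0.50 (limma adjusted p = 0.199) and -0.19 (limma adjusted p = 0.375). All 5 genes were lower in 3D in replicate 1, by 0.21 for MX2 up to 1.59 for OAS2.

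The remaining effectors were spread around 0. IFIT5, which binds viral RNA ends, had 8.77 and 8.89 in 3D and 9.29 and 9.33 in 2D and lay just outside the threshold (difference -0.48, SE 0.103, limma adjusted p = 0.0507). ISG20, an exonuclease, gave -0.35 (limma adjusted p = 0.155). IFIT2 had 6.24 and 6.51 in 3D and 6.15 and 6.51 in 2D (difference 0.05, limma adjusted p = 0.915), and in replicate 1, where its values were 3.61 in 3D and 0.77 in 2D, it had the highest difference of the members (2.84). IFI6, a mitochondrial protein, gave 0.17 (limma adjusted p = 0.392). IFI35 was the effector with the highest difference, at 9.76 and 9.45 in 3D and 9.22 and 8.61 in 2D (0.69, SE 0.219, limma adjusted p = 0.125), and its 4 probe sets ranged from 0.39 to 0.69 with no overlap between groups. IFI35 also differed by 0.34 to 0.90 in replicate 1.

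PARP9, an ADP-ribosyltransferase family member that pairs with the ubiquitin ligase DTX3L, had 9.13 and 9.08 in 3D, against 10.18 and 9.69 in 2D, and fell 1.78-fold (difference -0.83, SE 0.171, limma adjusted p = 0.0459). With trend and robust priors its limma adjusted p was 0.0517. DTX3L, its neighbour in the canine gene table, had 10.63 and 10.28 in 3D and 11.20 and 10.94 in 2D (difference -0.62, SE 0.158, limma adjusted p = 0.078), and its second probe set gave the same difference. PARP14, which lies nearby with 1 protein-coding gene between, had 8.38 and 8.11 in 3D and 9.04 and 8.42 in 2D (difference -0.49, SE 0.217, limma adjusted p = 0.25). On these representative probe sets none of the 3 genes had overlapping groups, and 27.4% of all genes were likewise lower in 3D without overlap. In replicate 1 they differed by -0.85, -0.68 and -0.61. The second PARP14 probe set lay below the lower quartile on all 4 arrays, with overlapping groups (difference -0.115, limma adjusted p = 0.633). In replicate 1 the second probe sets differed by 0.00 for DTX3L and -2.80 for PARP14.

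Of 5 genes of MHC class I peptide supply 1 rose (20.0%, against 4.2% of all genes) and 4 did not pass, too few genes to read the share as a result. Differences between these genes were not tested. TAP2, PSMB8, TAP1 and PSMB9 are consecutive in the canine gene table. PSMB9, a catalytic subunit of the immunoproteasome, had 11.29 and 11.12 in 3D, against 10.56 and 10.24 in 2D, and rose 1.75-fold (difference 0.81, SE 0.142, limma adjusted p = 0.032). It was also higher in replicate 1, at 10.17 in 3D and 9.03 in 2D. PSMB8, another catalytic subunit, did not pass on either probe set, at -0.11 (limma adjusted p = 0.756) and 0.37 (limma adjusted p = 0.0974), and both lay near the lower quartile of the arrays.

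TAP1 and TAP2, the partner chains of the peptide transporter, gave 0.32 (limma adjusted p = 0.324) and 0.30 (limma adjusted p = 0.184), with probe sets of both signs for each. In replicate 1 their representative probe sets differed by -0.51 and -0.68. B2M, the light chain of class I molecules, had 13.85 and 14.07 in 3D and 13.96 and 13.87 in 2D, so that the groups overlapped (difference 0.05, SE 0.118, limma adjusted p = 0.878). B2M differed by 0.97 and 1.36 on its probe sets in replicate 1.

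**Figure D3:**
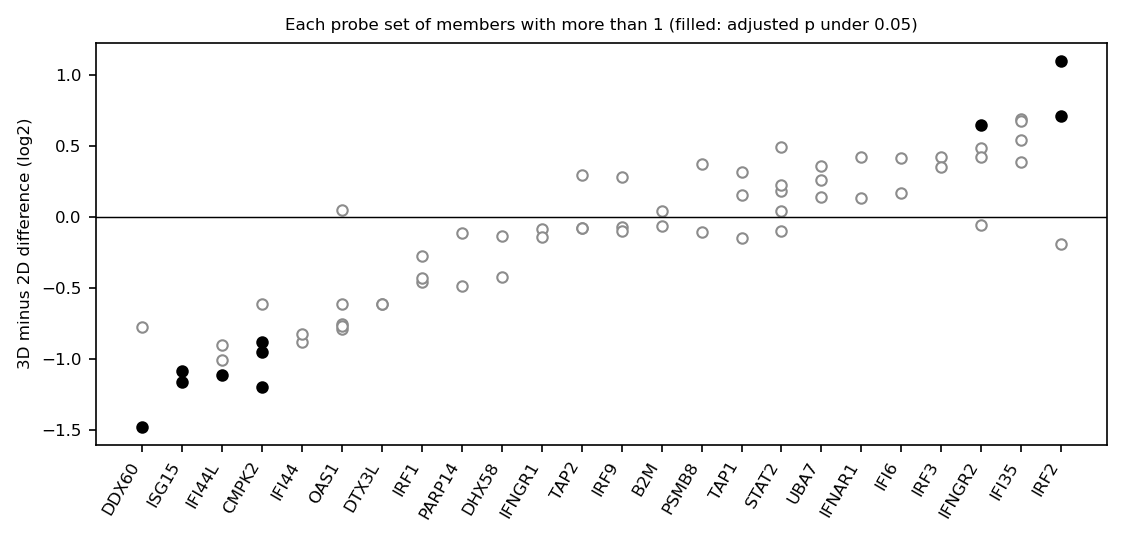
The 3D minus 2D difference (log2, vertical axis) of each probe set for the 24 members with more than 1, replicates 2 and 3, ordered by the gene's median and filled where the limma adjusted p is under 0.05. Both probe sets of ISG15 and all 4 of CMPK2 lie below 0, while 1 probe set of IRF2 lies on the other side of 0 from the filled pair.

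Of the 24 genes with several probe sets, 9 had differences of both signs: IRF2, IFNGR2, STAT2, IRF9, OAS1, TAP1, TAP2, PSMB8 and B2M. In Affymetrix naming, the suffix s marks probe sets whose probes match more than 1 transcript and x those that may cross-hybridize. They numbered 33 and 2 of the 83 member probe sets. ISG15 and IFI44L passed on a probe set without a suffix, as did USP18, HERC6, CMPK2, DDX60 and IRF2, whereas EIF2AK2, PARP9, IFNGR2 and PSMB9 passed on probe sets with the suffix s alone.

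The 2D arrays differed from each other in these genes. For 34 of 40 members the value was higher on 2D replicate 2 than on 2D replicate 3, against 48.5% of all genes, and the median gap was 0.26, against 0.00 over all genes. A step of 0.4, set after the values were seen, was reached by 13 members (32.5%, against 1.55% of all genes). The widest gaps were 0.98 for MX1, 0.69 for MX2 and 0.62 for PARP14. Between 3D replicate 2 and 3D replicate 3 the median gap was 0.06. Here 4 members were higher on replicate 2 by at least 0.4 (against 6.08% of all genes), and 2, RSAD2 and IFI44, were lower on it by as much (against 5.8%). No member was lower by 0.4 on 2D replicate 2. Without 2D replicate 2 the members' median difference was -0.22, against -0.47 without 2D replicate 3.

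**Figure D4:**
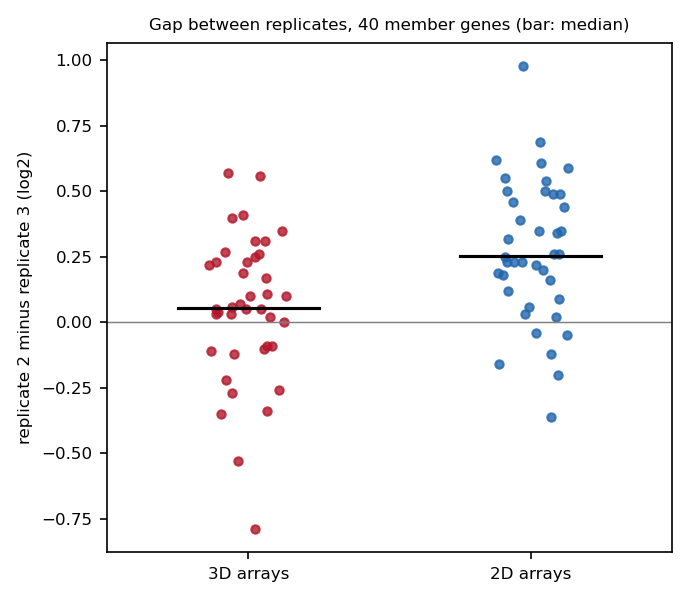
Replicate 2 minus replicate 3 (log2, vertical axis) within the 3D arrays (left) and within the 2D arrays (right), 1 point for each of the 40 member genes and a bar at the median. The medians are 0.06 in 3D and 0.26 in 2D, and MX1 is the highest point of the 2D arrays at 0.98.

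In the replicate 1 pair 29 of 40 members were lower in 3D (72.5%, against 54.6% of all genes). The median difference was -0.47 for the members and -0.11 for all genes. Of the 9 genes past the threshold, 7 had the same sign in replicate 1, and the others were HERC6 (0.72) and IRF2 (-0.17). Among the 7, EIF2AK2 was level, at -0.03. The share of all called genes with the same sign there was not counted, so the 7 cannot be set against it. The largest differences there belong in part to values far below that scale's lower quartiles of 3.38 in 3D and 3.52 in 2D, such as IFIT2, so their size is uncertain.

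A wider list of 90 symbols for interferon induction, signalling and response had 63 measured genes. Of these 2 fell (3.2%, against 3.09% of all genes), 2 rose (3.2%, against 4.2%) and 59 did not pass, so that both shares were near those of all genes. The median difference was 0.05. TNFSF10, which encodes the death ligand TRAIL, had 10.03 and 10.19 in 3D, against 11.22 and 11.15 in 2D, and fell 2.11-fold (difference -1.08, SE 0.109, limma adjusted p = 0.0103). Its second probe set fell 2.54-fold, and in replicate 1 they differed by -1.72 and -1.45. PNPT1, a mitochondrial RNA-degrading enzyme, fell 1.55-fold, with 9.50 and 9.59 in 3D and 10.27 and 10.08 in 2D (limma adjusted p = 0.0337), but differed by 0.24 in replicate 1.

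NMI, which encodes a binding partner of IFI35, rose 1.65-fold, with 12.01 and 12.04 in 3D and 11.48 and 11.13 in 2D (limma adjusted p = 0.0398). A second NMI probe set rose as well, and this pair differed by 1.08 and 0.96 in replicate 1. The others of its 6 probe sets gave 0.085 to 0.52 without passing. JAK1, the kinase bound to both interferon receptors, rose 1.40-fold, with 12.67 and 12.64 in 3D and 12.23 and 12.11 in 2D (limma adjusted p = 0.049). Its other 4 probe sets gave 0.23 to 0.47 without passing, and in replicate 1 all 5 were slightly lower in 3D, by 0.05 to 0.33. TYK2, the kinase of IFNAR1, did not pass (0.33, limma adjusted p = 0.164). SOCS1, a feedback inhibitor, lay below the lower quartile on all 4 arrays and differed by 0.07 (limma adjusted p = 0.754). IFNB1, which encodes interferon beta, lay below it as well, at 4.18 and 4.22 in 3D and 4.33 and 4.14 in 2D (difference -0.04, limma adjusted p = 0.905). Of the other measured interferon genes, IFNG also lay below it on all 4 arrays. IFNK differed by -0.68 (limma adjusted p = 0.144). IFNL1 lay above the array medians, at 7.40 and 7.13 in 3D and 7.28 and 7.33 in 2D (difference -0.04, limma adjusted p = 0.901).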

How the data were processed

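Log2 expression values, 1 per probe set and array, were used as deposited by the authors, and the submitters' processing notes name RMA and limma without a version. The sources used here do not say how the replicate 1 columns, which include values below 0, were made. Total RNA was extracted with Trizol and 4 µg were labelled with biotin, per the labels' protocols. The table carries no detection calls and no genome build, so no positions are given.

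After 111 control probe sets were left out, 42924 entered limma 3.58.1 (R 4.3.3), with lmFit, eBayes and two-sided tests. P-values were adjusted by Benjamini-Hochberg over all of them, at a threshold of 0.05. No filter on level was used. Standard errors are those of the fit. Genes were named from the platform annotation, in which 439 probe sets carry several symbols and were not named and 13231 are unnamed here. Of the 40 members' Entrez identifiers, 35 were found among the protein-coding genes of the table of UU_Cfam_GSD_1.0, which was used for names and gene order only. The fit was tested on simulated data. Python 3.11.15, pandas 2.3.3, numpy 2.4.6 and matplotlib 3.10.9 served for joins and plots.

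All 40 members could be named. Values on each array were given for members with any probe set past the threshold, the 10 largest differences, the ISG15 cycle, regulatory factors, ISGF3 and receptors, and some others where a sentence turned on them. Members and lists were chosen with earlier results of these data known. A planned promoter motif search was not run, since no promoter sequences were used here.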

Additional observations from a re-analysis of the deposited data

How the results depend on the processing

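The members past the limma threshold numbered 9 (26 members and 10072 of 42924 probe sets at an unadjusted p under 0.05). They numbered 8 to 12 under some other settings. These were trend and robust priors, median centring, dim probe sets left out, averaged probe sets, and the probe set with the highest mean over 4 arrays. The wider list then gave 3 to 5. With all 6 arrays and no block, as deposited, 0 members, 0 member probe sets, 0 wider-list genes and 0 of all probe sets passed (0 members and 105 probe sets at an unadjusted p under 0.05). After quantile normalization of all 6 arrays these were 0, 0, 0 and 2 (10 members and 1775 probe sets). With the replicate block on 4 arrays they were 0, 0, 0 and 0 (28 members and 8325 probe sets), and with the replicate block on all 6 arrays 0, 0, 0 and 0 (16 members and 2723 probe sets). On the shared scale only 2 pairs exist, and the deviations of same-numbered arrays correlated by 0.00127 over 42924 probe sets, so the numbers were not taken to pair the arrays. Leaving out 1 array gave 0 to 0 calls for each of the 4 counts, with 1 residual degree of freedom and the lone array of its group assumed to vary like the other group. The members' median ranged from -0.465 to -0.215 when 1 array was left out, and was -0.44 to -0.32 under the other settings. Across 286 refits of 22 named members, 281 kept their direction, and the other 5 concerned IFNAR1 and IFNGR1, which never passed. Many of these refits could not change a direction. The priors, the replicate block on 4 arrays and the dim filter leave the difference itself as it was. Leaving out 1 array cannot turn a gene whose groups do not overlap. The count is therefore no measure of robustness. DDX60 passed with dim probe sets left out, with the mean of probe sets and with the other representative, and IFI44L with the first of these and the mean. The causes of lost calls were not tested.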

Other observations

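In the wider list, 4 further genes had a passing probe set that is not the representative one. ERAP1, which trims peptides for MHC class I, was higher in 3D on its second probe set, with 8.27 and 8.21 in 3D and 7.78 and 7.77 in 2D (difference 0.47, SE 0.0979, limma adjusted p = 0.0484), and its representative probe set gave 0.65 (limma adjusted p = 0.0523). PSME1 and PSME2, which encode the subunits of the proteasome activator PA28, each had 1 lower probe set, at -0.56 (limma adjusted p = 0.0499) and -0.63 (limma adjusted p = 0.0246), and in replicate 1 these differed by -1.52 and 0.48. The PSME1 probe set lay at 8.26 and 8.50 in 3D and 8.93 and 8.94 in 2D, and that of PSME2 at 5.22 and 5.18 in 3D and 5.87 and 5.79 in 2D, the PSME2 values around the arrays' lower quartiles. The other 3 PSME1 probe sets gave 0.04 to 0.46 and the other PSME2 probe sets 0.24 and 0.31, none of them past the threshold. GBP5, an interferon-inducible guanylate-binding protein, had 4.69 and 4.56 in 3D and 5.11 and 5.14 in 2D (difference -0.50, SE 0.104, limma adjusted p = 0.0466), all below the arrays' lower quartiles.

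CXCL10, a chemokine named after its induction by interferon gamma, had the highest difference of the wider list (1.02) without passing (limma adjusted p = 0.173). IDO1, a tryptophan-degrading enzyme, had the lowest after TNFSF10 (-0.91, limma adjusted p = 0.209). The 2D arrays were 1.09 apart for CXCL10 and 1.23 apart for IDO1. In replicate 1 CXCL10 differed by 1.93. IDO1 went the other way there on its representative probe set, by 1.03, against 0.20 and -0.01 on its other probe sets. In replicates 2 and 3 those other probe sets gave -1.275 (limma adjusted p = 0.077) and -1.215 (limma adjusted p = 0.0794).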
